A study of Mus musculus with 8 samples.

Results

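Pancreatic ductal adenocarcinoma (PDAC) cells in which *Smad4* had been switched back on were compared with the same cells kept in the *Smad4*-off state, with both exposed to TGFβ1 for 24 h. The comparison used 4 of the 8 RNA-seq libraries of the series, chosen by the treatment and doxycycline (Dox) state in the sample titles. Each Smad4 state held 1 library from line KCS-B73 and 1 from line KCS-B87, written B73 and B87 here. Of 53465 genes in the deposited table, 14301 passed the filter on low counts and were tested.

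All cells came from primary pancreatic tumors of KC-shSmad4 mice. These mice carry Ptf1a-Cre, which acts in the pancreatic epithelium, a further Cre-activated allele, a Cre-dependent rtTA3 and mKate2 reporter at Rosa26, and at Col1a1 a Dox-inducible, GFP-linked short hairpin RNA (shRNA) against *Smad4*. The DoxOn groups (genotype label Smad4OFF) stayed on Dox throughout, and the DoxOff groups (Smad4ON) spent 5 days without it before the cells were plated. Treatment began 24 h after plating and was 100 pM TGFβ1 or, in the other 4 libraries, 2.5 µM SB505124, an inhibitor of the type I TGFβ receptor kinase, for 24 h in either case. Every library therefore had the shRNA cassette, and none carried a neutral shRNA, so the state of *Smad4* and the presence of Dox cannot be told apart here. The labels do not say which *Smad4* shRNA each line carries, nor whether the libraries of a line came from separate cultures. The line is part of the main model, so its p-values measure how far the lines disagree in the effects of the conditions. This spread may be partly technical.

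SMAD4 is the shared partner of the receptor-regulated SMAD proteins. When TGFβ binds its receptors, SMAD2 and SMAD3 are phosphorylated, join SMAD4 and enter the nucleus, where the complex binds short DNA words such as CAGAC and acts with other transcription factors on target genes. In epithelial cells the pathway is known for slowing the cell cycle, for inducing extracellular matrix and its own inhibitors, and for driving epithelial-mesenchymal transition. *SMAD4* is often lost in human PDAC.

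The 4 libraries held 19934933 to 23123069 counts, and at these depths 3 counts, taken as the smallest detectable level, correspond to between 0.129 and 0.153 CPM (counts scaled to a common library size after TMM normalization). PCR copies cannot be recognized among these reads, so the floor accounts for counting error alone. All 10 ductal epithelial markers had counts in every TGFβ1 library, with summed levels of 1343 to 4015 CPM off and 1245 to 5872 CPM on. These sums were mostly those of the keratins *Krt8* and *Krt18*. *Epcam* was low throughout, at 0.343 CPM in B73 and 0.548 CPM in B87 off, and 1.53 and 0.153 CPM on. *Cldn4* was near the floor in the B87 off library (0.199 CPM). Of markers of other cell types, 3 of 9 fibroblast, 3 of 7 endothelial and 2 of 8 leukocyte genes were tested, while *Lum*, *Emcn*, *Adgre1*, *Itgam* and *Cd3e* had no counts in the TGFβ1 libraries. The fibroblast sum lay between 36.3 and 66.6 CPM off and between 2.55 and 41.0 CPM on, the endothelial sum between 7.50 and 27.1 CPM off and 3.88 and 5.97 CPM on, and the leukocyte sum between 31.7 and 34.6 CPM off and 22.3 and 27.1 CPM on. Acinar and endocrine markers summed to at most 0.255 CPM.

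*Smad4* (ENSMUSG00000024515) itself measured 34.7 CPM in B73 and 35.5 CPM in B87 with the shRNA on, and 117 and 115 CPM with it off. The on libraries lay well above the off libraries, and the lines differed little within a state. The log2 fold change was 1.73 ± 0.09 (SE) with an edgeR adjusted p of 0.000840. The comparison was thus between a reduced and a restored *Smad4* level, not between absence and presence.

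With *Smad4* restored, edgeR called 188 genes higher (1.31% of the 14301 tested) and 258 lower (1.80%), which made 446 genes or 3.12% in all. Calls required an adjusted p (Benjamini-Hochberg) under 0.05 together with a change of more than 2-fold. By the fitted folds, 114 of the lower and 68 of the higher genes were past 4-fold and 53 and 31 past 8-fold. The median log2 fold change was 1.64 over the higher and -1.86 over the lower genes, beside -0.01 over all genes tested. Genes called higher had a median level of 9.56 CPM off and 33.6 CPM on, and genes called lower had medians of 10.3 CPM and 2.53 CPM. In 31 of the lower genes, but in 6 of the higher, every library of the lower state had at most 3 counts, so their fold is given only as a lower bound. The ranges of the states did not overlap in 157 of the higher and 224 of the lower genes, a separation that 22.3% of all tested genes showed upward and 22.5% downward.

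The line is part of the model, since each line went through all 4 conditions. With no replicate block, that is, without the line, edgeR called 16 genes higher and 20 lower at the same thresholds, while 1901 genes had an unadjusted p under 0.05. DESeq2 called 202 higher and 306 lower with the line and 106 and 162 without it. Leaving out the B73 Smad4-off library left 57 higher and 99 lower genes, and leaving out the B73 Smad4-on library left 93 and 128. Without the B87 Smad4-off library there were 107 and 109, and without the B87 Smad4-on library 147 and 156. No called gene was called in the other direction under any of these fits. Members of gene lists are counted below as called higher or lower, beside the 1.31% and 1.80% above. Where passing on adjusted p is counted without the fold rule, 504 of the 14301 tested genes did so upward and 469 downward. The lists were chosen with earlier results of these data known. Larger shares in a list may therefore be built in and are no evidence of enrichment. Values after a gene name are given as B73 and then B87.

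**Figure D1:**
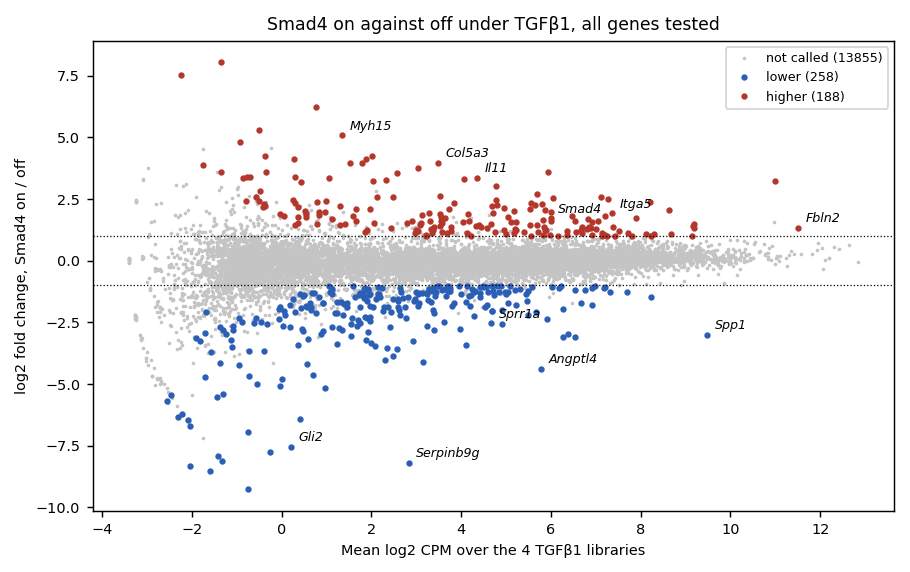
Log2 fold change (Smad4 on over off, y axis) against mean log2 CPM over the 4 TGFβ1 libraries (x axis) for the 14301 tested genes; red points are the 188 genes called higher, blue the 258 called lower, grey the rest, and dotted lines mark 2-fold. The lower genes reach further from 0 than the higher ones, and the most extreme points lie at low expression, where fitted folds of genes at or near 0 counts depend on the fitting.

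Within the TGFβ pathway, an activin subunit and part of the feedback machinery rose with restoration, and no receptor or receptor-regulated SMAD was called. Of 20 ligands, receptors and other SMADs tested, 1 was called, *Inhba*. *Inhba* (chr13:16011851-16031621), which encodes the βA subunit of activins and inhibins, measured 97.0 and 388 CPM off and 524 and 1259 CPM on. The lines differed in level, and in each the on library was above its off library, though the off library of B87 came close to the on library of B73. Its log2 fold change was 2.05 ± 0.18 (edgeR adjusted p 0.00237). The receptor gene *Tgfbr2* had 219 and 182 CPM off and 126 and 146 CPM on (log2 -0.55 ± 0.14, edgeR adjusted p 0.0702), and *Smad3* had 170.4 and 189 CPM off and 169 and 150.3 CPM on (log2 -0.17 ± 0.09, edgeR adjusted p 0.312). Neither was called, and the median log2 fold change of the 20 genes was -0.10. Of the 20, 2 passed upward on adjusted p, *Inhba* included, and none downward. Other uncalled receptor genes moved in both directions. *Tgfbr3* had 357 and 155 counts off and 27 and 64 counts on, and *Acvr1* had 2008 and 1510 counts off and 2918 and 2495 counts on.

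Of 17 genes for feedback and attenuation of TGFβ signaling, 2 were called higher and none lower, and 6 had an edgeR adjusted p under 0.05, each of them upward. *Smad7*, the inhibitory SMAD that blocks the type I receptor, measured 67.2 and 72.9 CPM off and 153 and 155 CPM on, with tight agreement between the lines and no overlap of the states. Its log2 fold change was 1.14 ± 0.11 (edgeR adjusted p 0.00317). *Fstl3*, a secreted inhibitor of activin, measured 4.29 and 9.91 CPM off and 19.6 and 21.6 CPM on (log2 1.63 ± 0.27, edgeR adjusted p 0.0178). An activin subunit and an activin antagonist thus rose in the same libraries. *Ldlrad4* (log2 0.89 ± 0.14), *Skil* (0.56 ± 0.08), *Ski* (0.49 ± 0.09) and *Smurf2* (0.45 ± 0.09), which dampen SMAD signaling at the receptor or in the nucleus, passed on adjusted p but not on size. *Pmepa1*, a feedback inhibitor that sequesters receptor-regulated SMADs, had 463 and 483 CPM off and 647 and 637 CPM on and was not called (log2 0.44 ± 0.22, edgeR adjusted p 0.293). The median of the 17 genes was 0.29. In the BMP branch, 1 of 15 genes was called, the BMP antagonist *Nog* (0.0429 and 0.598 CPM off and 0.612 and 2.96 CPM on, log2 2.58 ± 0.41), which had 1 count in the B73 off library.

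**Figure D2:**
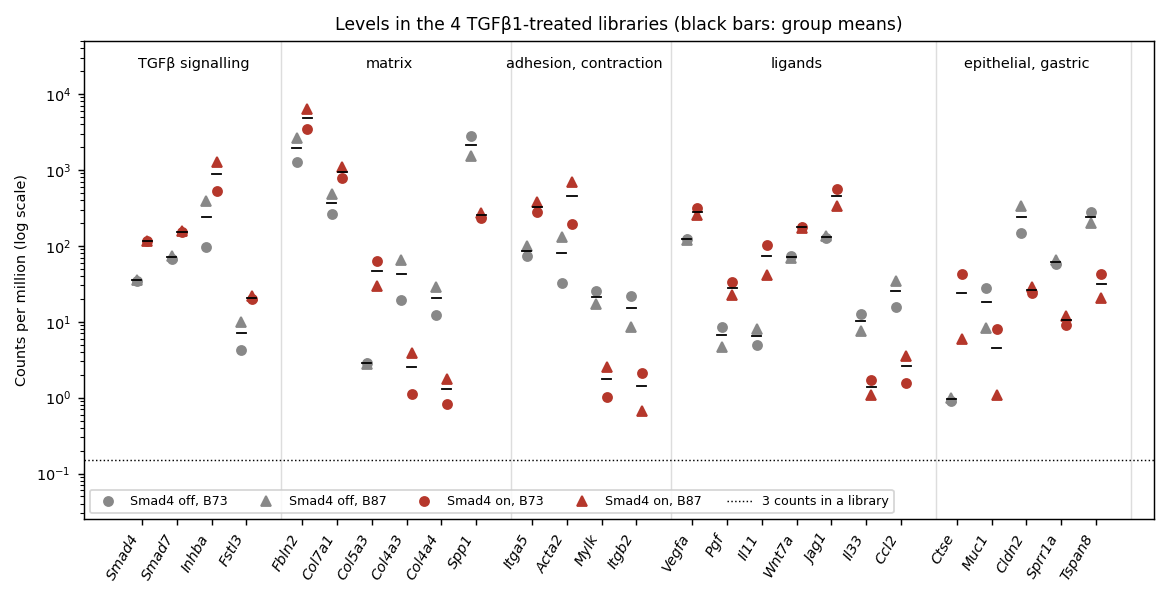
CPM (log axis) of 26 genes in each of the 4 TGFβ1-treated libraries, with circles for B73, triangles for B87, grey for Smad4 off, red for Smad4 on, black bars for group means and a dotted line at 3 counts. *Smad4*, *Smad7* and *Wnt7a* separate cleanly by state in both lines, whereas *Inhba*, *Fbln2* and *Acta2* differ between the lines about as much as between the states, and *Col4a3*, *Col4a4*, *Il33* and *Sprr1a* lie lower with Smad4 on.

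Extracellular matrix genes changed in both directions. Among 24 genes of fibrillar and related collagens, microfibrils and elastic fibers, 4 were called higher (*Fbln2*, *Col5a3*, *Col1a1* and *Col12a1*) and 2 lower (*Col5a2* and *Efemp1*). Of these, *Fbln2* and *Efemp1* are not collagens. The median log2 fold change of the 24 genes was 0.46. *Fbln2* encodes fibulin-2, a glycoprotein of elastic fibers and basement membranes, and had 1271 and 2633 CPM off and 3396 and 6343 CPM on. It was the most abundant gene of the group per kilobase of transcript, with group means of 306 CPM per kb off and 764 CPM per kb on, and its log2 fold change was 1.35 ± 0.11 (edgeR adjusted p 0.00180). *Col5a3*, a minor chain of type V collagen, had the largest rise, from 2.87 and 2.79 CPM to 63.4 and 29.6 CPM. Both on libraries were far above both off libraries (log2 3.98 ± 0.39, edgeR adjusted p 0.00346), but per kilobase its on level, 6.83 CPM per kb, stayed below that of *Col1a1* (48.2 CPM per kb). *Col1a1*, the α1 chain of type I collagen, was mostly a B87 transcript, at 2.19 and 161 CPM off and 5.10 and 627 CPM on. *Col1a1* also hosts the shRNA cassette in these mice.

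*Col5a2*, another type V chain, showed the reverse pattern to *Col5a3* and came almost wholly from B73, with 497 and 2.74 CPM off and 114 and 1.68 CPM on. Its log2 fold change was -1.86 ± 0.34 (edgeR adjusted p 0.0251), and DESeq2 with the line gave an adjusted p of 0.200, so that this call rests on 1 tool. *Col12a1* measured 13.8 and 71.7 CPM off and 35.1 and 207 CPM on (log2 1.45 ± 0.32) and *Efemp1*, a fibulin-related matrix protein, 20.7 and 10.1 CPM off and 7.50 and 4.69 CPM on (log2 -1.30 ± 0.25). The fibronectin gene *Fn1*, one of the most abundant transcripts, had 5468 and 4731 CPM off and 8559 and 7435 CPM on and was not called (log2 0.65 ± 0.31, edgeR adjusted p 0.259). The summed level of the fibroblast markers, given above, was lower on than off in each line. It was mostly that of *Col3a1*, a fibrillar collagen and itself 1 of the 24 genes, which had 34.0 and 41.5 CPM off and 1.68 and 21.5 CPM on and was not called (log2 -2.11 ± 0.84, edgeR adjusted p 0.190), and in B87 also that of *Pdgfrb* (1.46 and 18.9 CPM off and 0 and 15.8 CPM on). The part of fibroblast RNA in these matrix results was not tested.

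In the basement membrane, 2 of 22 genes were called higher and 2 lower, and 6 of the 22 had a negative change with an edgeR adjusted p under 0.05. The called genes that fell were *Col4a3* and *Col4a4*, the chains that assemble with α5 into a specialized type IV collagen of the kidney filter and some other basement membranes. *Col4a3* (chr1:82586921-82722059) had 19.3 and 65.7 CPM off and 1.12 and 3.93 CPM on, and *Col4a4* (chr1:82448423-82586849) had 12.2 and 28.7 CPM off and 0.817 and 1.78 CPM on. All on libraries were below all off libraries for both genes. The log2 fold changes were -4.10 ± 0.22 (edgeR adjusted p 0.000840) and -4.01 ± 0.31 (0.00140). *Lama5*, a laminin chain, also passed on adjusted p with a smaller fall (log2 -0.59 ± 0.09), while the perlecan gene *Hspg2* did not (-0.28 ± 0.15). The genes called higher were *Lamb3*, a chain of laminin-332 (71.6 and 14.5 CPM off and 341 and 45.9 CPM on, log2 1.98 ± 0.17), and *Col7a1*, the anchoring fibril collagen (258 and 478 CPM off and 774 and 1103 CPM on, log2 1.40 ± 0.14). Both belong to the hemidesmosome anchoring system of stratified epithelia.

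*Col4a3* and *Col4a4* lie head to head on chromosome 1, with 72 bases between their 5′ ends, so that a single promoter window at the *Col4a4* start holds the starts of both. This window is shown because it is shared by a pair of genes that moved together. The sequence is on the minus strand of chr1:82586800-82587099 (GRCm38.p6, RefSeq), 250 bases before to 50 bases after the start, with the single CAGAC word (here on the opposite strand as GTCTG) in capitals.
*Col4a4* and *Col4a3* start region: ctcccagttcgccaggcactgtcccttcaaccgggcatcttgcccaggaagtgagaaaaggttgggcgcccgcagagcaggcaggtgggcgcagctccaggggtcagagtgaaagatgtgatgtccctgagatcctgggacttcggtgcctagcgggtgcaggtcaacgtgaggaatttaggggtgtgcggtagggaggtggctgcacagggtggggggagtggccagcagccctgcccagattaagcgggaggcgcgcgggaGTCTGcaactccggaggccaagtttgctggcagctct

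Of 28 matrix proteases and inhibitors, 5 were called higher and 4 lower. Among those that rose were *Adam12*, a membrane metalloprotease (36.1 and 61.1 CPM off and 155 and 174 CPM on, log2 1.81 ± 0.17), and *Timp3*, a matrix-bound metalloprotease inhibitor (40.4 and 397 CPM off and 284 and 1671 CPM on, log2 2.37 ± 0.32). *Timp3* was much higher in B87 than in B73 in either state, so that its states overlapped across lines. *Plat*, tissue plasminogen activator, fell from 66.9 and 53.6 CPM to 17.7 and 18.7 CPM (log2 -1.72 ± 0.12, edgeR adjusted p 0.00140), without overlap. *Mmp3* (0.343 and 8.07 CPM off and 0.0510 and 0.561 CPM on) and *Adamts9* (4.8 and 10.0 CPM off and 0.715 and 0.663 CPM on) were also called lower, from low levels. Of 16 matricellular genes tested, 2 rose and 2 fell. *Tnc* (tenascin C) had 9.81 and 61.5 CPM off and 75.3 and 216 CPM on (log2 2.32 ± 0.24) and *Wisp1*, a secreted CCN-family protein, 41.2 and 125 CPM off and 108 and 318 CPM on (log2 1.37 ± 0.08).

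*Spp1*, which encodes osteopontin, was among the more abundant transcripts of the Smad4-off cells. It had 2749.8 and 1536 CPM off and 235 and 267 CPM on, and its on level in either line was less than that of any off library (log2 -3.01 ± 0.30, edgeR adjusted p 0.00369). A predicted gene, *Gm42793*, overlaps it. *Thbs3* (9.81 and 6.92 CPM off and 2.09 and 1.43 CPM on, log2 -2.26 ± 0.25) fell too, while *Thbs1*, a TGFβ-inducible thrombospondin, had 975 and 1386 CPM off and 2594 and 4517 CPM on and narrowly missed the threshold (log2 1.59 ± 0.38, edgeR adjusted p 0.0557). No gene of 18 for crosslinking and modifying the matrix was called, although 4 passed on adjusted p. Of 16 hyaluronan and proteoglycan genes, *Has2* and *Sdc3* were called higher. *Has2*, a hyaluronan synthase, had 1.67 and 41.8 CPM off and 49.3 and 152 CPM on (log2 3.02 ± 0.59, edgeR adjusted p 0.0320), with the lower starting level and the larger rise in B73. *Sdc3* (syndecan 3) had 50.7 and 115 CPM off and 192 and 272 CPM on (log2 1.6 ± 0.21).

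Genes of integrin adhesion and contraction were called higher more often than lower. Of 27 integrin and focal adhesion genes, 4 were called higher and 2 lower, and 8, the 4 included, passed upward on adjusted p, with a median of 0.40. *Itga5*, the α5 subunit of the fibronectin receptor (ENSMUSG00000000555, chr15:103344286-103366763), had 72.9 and 99.1 CPM off and 277 and 373 CPM on. The states were far apart in both lines (log2 1.92 ± 0.13, edgeR adjusted p 0.00122). Its β partner *Itgb1* had 1420.3 and 1747 CPM off and 2089.9 and 2715 CPM on and passed on adjusted p (0.00931) but not on size (log2 0.60 ± 0.08). *Fermt2* (kindlin-2, which activates integrins; 135 and 183 CPM off and 279.9 and 356 CPM on), *Zyx* (zyxin; 163 and 295 CPM off and 372 and 561 CPM on) and *Lims2* (PINCH-2; 10.5 and 4.68 CPM off and 25 and 15.4 CPM on) rose by log2 1.00 ± 0.08, 1.07 ± 0.15 and 1.52 ± 0.33. *Itga1*, a collagen receptor subunit, fell (16.5 and 15.0 CPM off and 9.03 and 4.79 CPM on, log2 -1.24 ± 0.19), as did *Itgb7*, which had 2 counts in each B87 library and is a B73 result (13.7 CPM off, 1.94 CPM on). *Itgb2*, the shared β subunit of the leukocyte integrins, fell as well, from 21.8 and 8.62 CPM to 2.14 and 0.663 CPM (log2 -3.47 ± 0.23, edgeR adjusted p 0.00116). Of the leukocyte markers, *Itgam*, *Adgre1* and *Cd3e* had no counts in any of the 4 libraries, and *Ptprc*, *Csf1r* and *Cd79a* were below 1 CPM. *Cd14* was detected (28.6 and 32.4 CPM off and 25.4 and 21.0 CPM on), as was *Cd68* (3.00 and 2.09 CPM off and 1.48 and 1.17 CPM on). Both were lower on than off in each line without a call. The part of leukocyte RNA was not tested.

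Of 19 muscle actin and contractile genes, 4 were called higher and 1 lower, and 10 had a positive change with an edgeR adjusted p under 0.05, with a median of 0.69. *Acta2*, smooth muscle α-actin, measured 31.9 and 129 CPM off and 195 and 701 CPM on (log2 2.51 ± 0.24, edgeR adjusted p 0.00331). The states did not overlap, although the B87 off library came near the B73 on library. Per kilobase, *Acta2* averaged 251 CPM per kb on against 7.81 CPM per kb for the skeletal *Acta1* and 0.573 CPM per kb for the enteric *Actg2*, both also called higher. *Myh15*, a myosin heavy chain, rose from 0.471 and 0.349 CPM to 22.7 and 7.24 CPM. *Palld* (palladin, an actin crosslinker) rose too (48.7 and 102 CPM off and 152 and 288 CPM on, log2 1.57 ± 0.10).

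*Mylk*, myosin light chain kinase, went against the rest of the contractile list, with 25.2 and 16.9 CPM off and 1.02 and 2.50 CPM on (log2 -3.57 ± 0.56, edgeR adjusted p 0.0154). *Myl12b*, a regulatory light chain, was also called lower (175 and 179 CPM off and 77.7 and 86.6 CPM on, log2 -1.11 ± 0.09), but 24.7% of its 75-base transcript stretches occur in transcripts of another gene. *Twf2*, which encodes a twinfilin that binds actin monomers, had one of the smallest p-values among the falls (71.0 and 85.1 CPM off and 24.0 and 25.6 CPM on, log2 -1.65 ± 0.09). The abundant cytoskeletal genes *Myh9* (log2 0.42 ± 0.09) and *Flna* (0.50 ± 0.11) passed on adjusted p without reaching 2-fold, and *Tpm1* did not (0.19 ± 0.10, edgeR adjusted p 0.309).

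Of 17 genes of the mesenchymal state tested, only *Ncam1*, a neural adhesion molecule, passed both thresholds (65.1 and 98.0 CPM off and 310.5 and 239.7 CPM on, log2 1.82 ± 0.32). *Vim* had 3896 and 3198 CPM off and 5319 and 4870.4 CPM on (log2 0.53 ± 0.10, edgeR adjusted p 0.0268), below 2-fold. *Snai1* had 4.03 and 14.6 CPM off and 15.1 and 41.8 CPM on (log2 1.77 ± 0.54, edgeR adjusted p 0.108) and *Zeb1* 90.0 and 96.0 CPM off and 97.0 and 98.7 CPM on (log2 0.07 ± 0.08, edgeR adjusted p 0.626). *Cdh1*, E-cadherin, had 186 and 64.0 CPM off and 109 and 11.5 CPM on, with a lower value on in each line but no call (log2 -1.47 ± 0.46, edgeR adjusted p 0.111). *Vim* was abundant and *Zeb1* detected in all 4 libraries.

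Several angiogenic and other growth factors rose. Of 33 genes of the VEGF, PDGF, FGF and IGF axis, 7 were called higher, or 21.2%, and 2 lower. *Vegfa* (chr17:46016993-46032369), the main angiogenic VEGF, had 123 and 118 CPM off and 310.1 and 250.4 CPM on. The lines were close within each state and the states did not overlap (log2 1.21 ± 0.09, edgeR adjusted p 0.00140). *Pgf*, a VEGFR1 ligand, had 8.48 and 4.68 CPM off and 33.3 and 22.4 CPM on (log2 2.11 ± 0.16), and *Vegfc*, a lymphangiogenic ligand, 9.68 and 9.32 CPM off and 37.5 and 21.5 CPM on (log2 1.58 ± 0.24). *Ccbe1*, which is needed for VEGF-C processing, rose beside it (49.0 and 56.9 CPM off and 189 and 142 CPM on, log2 1.62 ± 0.24). *Pdgfa* had 48.6 and 65.2 CPM off and 109 and 128 CPM on (log2 1.06 ± 0.11) and *Fgf2* had 4.97 and 44.0 CPM off and 19.7 and 96.7 CPM on (log2 1.5 ± 0.29). Per kilobase and with *Smad4* on, *Vegfa* (65.4 CPM per kb) was followed by *Pdgfa* (38.0), *Vegfc* (12), *Pgf* (9.60) and *Fgf2* (8.58).

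The 2 members that fell were *Vegfd* (2.44 and 3.99 CPM off and 1.38 and 1.22 CPM on, DESeq2 with the line adjusted p 0.0545) and *Kdr*, which encodes VEGFR2. *Kdr* had 6.04 and 25.2 CPM off and 0.510 and 2.60 CPM on (log2 -3.35 ± 0.31, edgeR adjusted p 0.00289). It is also 1 of the 7 endothelial markers, and made up most of their summed level off. Of the others, *Emcn* had no counts, *Pecam1*, *Tek* and *Vwf* were below 1 CPM throughout, and *Cdh5* (VE-cadherin) was higher on than off in each line without a call (0.986 and 0.797 CPM off and 2.76 and 2.04 CPM on, log2 1.42 ± 0.38, edgeR adjusted p 0.0761). The part of endothelial RNA was not tested. *Angptl4*, a secreted lipase inhibitor with vascular actions, was among the deepest falls at a substantial level, from 222 and 281 CPM to 17.7 and 8.21 CPM (log2 -4.38 ± 0.52, edgeR adjusted p 0.00652). *Edn1* (endothelin 1, a vasoconstrictor) rose (8.10 and 19.5 CPM off and 28.3 and 44.0 CPM on, log2 1.45 ± 0.31).

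Cytokine genes moved in both directions. Of 17 genes of the IL-6 and IL-1 families, *Il11* was called higher and *Il33* and *Il1r1* lower. *Il11*, an IL-6-type cytokine, had 4.97 and 8.07 CPM off and 104 and 41.0 CPM on. B73 reached the higher on level although its off level was the lower of the pair (log2 3.37 ± 0.44, edgeR adjusted p 0.00815). *Il33*, an alarmin of the IL-1 family, had 12.6 and 7.57 CPM off and 1.68 and 1.07 CPM on, with both on libraries far below both off libraries (log2 -2.87 ± 0.15, edgeR adjusted p 0.000840). *Il1r1* (IL-1 receptor) had 35.3 and 54.2 CPM off and 11.4 and 14.3 CPM on (log2 -1.78 ± 0.19), and *Il6st*, the shared signaling receptor of the IL-6 family, was similar throughout (148 and 228 CPM off and 139.8 and 199 CPM on, edgeR adjusted p 0.525).

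Of 14 chemokine ligands, 2 were called lower and 1 higher, and none of these calls was made by DESeq2 with the line. *Ccl2*, a monocyte attractant, had 15.4 and 34.7 CPM off and 1.58 and 3.57 CPM on (log2 -3.27 ± 0.53, edgeR adjusted p 0.0164, DESeq2 with the line 0.0653), and *Ccl5*, which attracts T cells among others, was near the floor (0.429 and 1.94 CPM off and 0 and 0.408 CPM on, DESeq2 with the line 0.0678). *Cxcl12* was expressed in B73 alone (38.8 CPM off and 106 CPM on, no counts in B87), and DESeq2 with the line gave 0.686. The median of the 14 was -0.99, or -0.70 with genes at the floor set to their bound. *Bst2* of 23 interferon-response genes (18.3 and 18.2 CPM off and 9.54 and 7.29 CPM on) and the class I gene *H2-Q4* of 16 MHC and immune ligand genes (5.57 and 9.07 CPM off and 1.79 and 2.29 CPM on) were the only ones of their lists to be called, both lower, with list medians of -0.44 and -0.51. In eicosanoid synthesis, *Ptgs2* (COX-2) had 259.6 and 461 CPM off and 773 and 1244 CPM on (log2 1.5 ± 0.16, edgeR adjusted p 0.00442) and *Alox5* 0.900 and 0.199 CPM off and 4.54 and 1.43 CPM on (log2 2.48 ± 0.37), both called higher, while *Ptgds*, a prostaglandin D synthase, had no counts in the on libraries and was at least 3.26-fold lower.

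**Figure D3:**
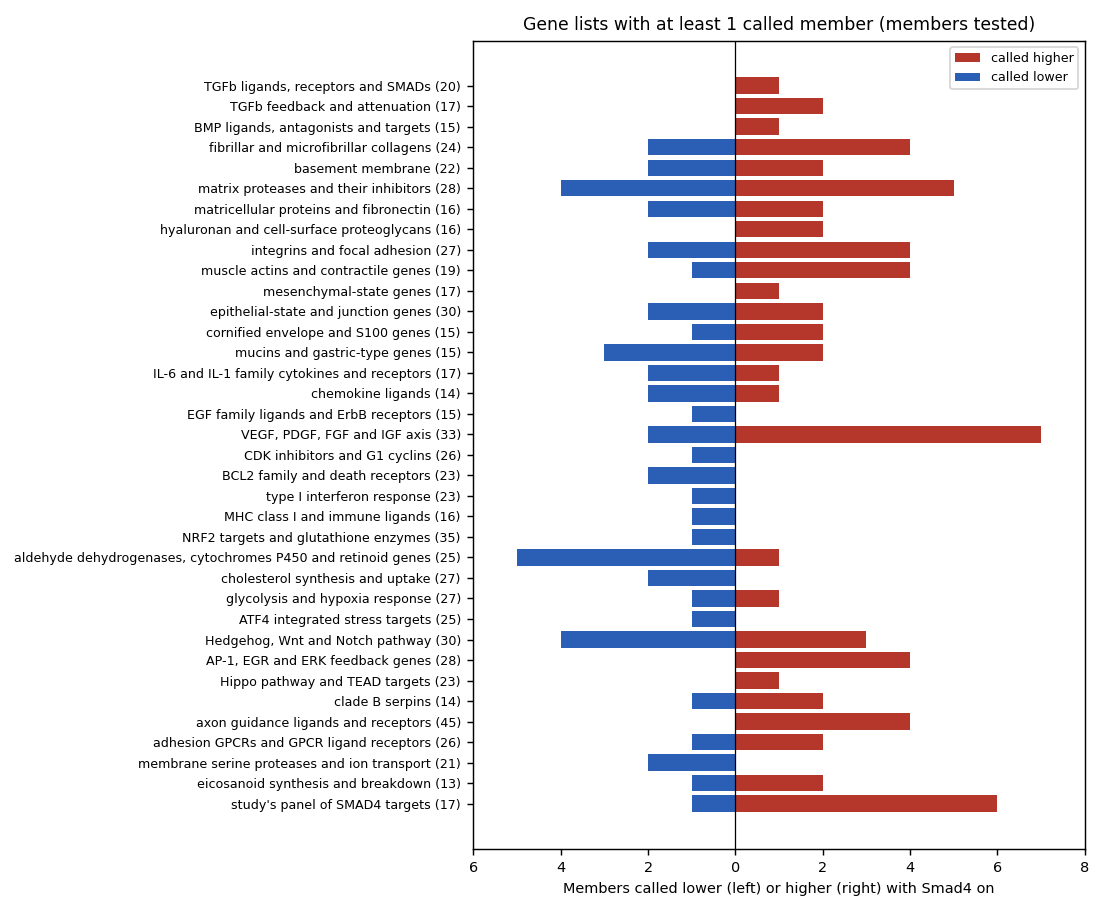
Number of members called lower (blue, left) or higher (red, right) with Smad4 on under TGFβ1, for each gene list with at least 1 called member; the number of members tested is given in brackets. The axes of growth factors (7 higher, 2 lower), proteases (5 and 4) and collagens with microfibril and elastic fiber genes (4 and 2) hold many calls. Aldehyde dehydrogenases with retinoid genes lean lower (1 and 5).

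Ligands of developmental pathways moved both ways. Of 30 genes of the Hedgehog, Wnt and Notch pathways, 3 were called higher, all of them ligands, and 4 lower. *Wnt7a* was steady between the lines, at 72.4 and 70.0 CPM off and 175 and 173 CPM on (log2 1.29 ± 0.09, edgeR adjusted p 0.00116). The Notch ligands *Jag1* (125 and 135 CPM off and 559 and 337 CPM on, log2 1.74 ± 0.24) and *Dll1* (2.14 and 2.29 CPM off and 14.1 and 12.8 CPM on, log2 2.60 ± 0.18) rose as well, *Jag1* at the much higher level (76.8 against 3.20 CPM per kb on). Other Wnt ligands fell from low levels, namely *Wnt10a* (1.20 and 9.12 CPM off and 0.204 and 0.663 CPM on) and *Wnt4* (2.53 and 0.946 CPM off and 0.153 and 0.102 CPM on). *Gli2*, a transcription factor of the Hedgehog pathway, went from 4.84 and 16.7 CPM to a single count in each on library, at least 70.5-fold lower over the group mean. *Lgr5*, an R-spondin receptor known from intestinal stem cells, had 1.41 and 1.15 CPM off and 1 and 0 counts on, at least 8.36-fold lower. The receptor *Notch2* had 178 and 194 CPM off and 209 and 199 CPM on and was not called.

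Of 45 axon guidance genes, 4 rose and none fell. *Sema4f* had 46.1 and 16.1 CPM off and 247 and 102 CPM on (log2 2.54 ± 0.19, edgeR adjusted p 0.00140), *Plxna4*, a semaphorin co-receptor, 1.46 and 3.04 CPM off and 43.1 and 21.3 CPM on (log2 3.77 ± 0.45), *Efnb1*, an ephrin ligand, 16 and 35.8 CPM off and 49.4 and 68.3 CPM on (log2 1.25 ± 0.18) and *Unc5c*, a netrin receptor, 0.814 and 3.69 CPM off and 4.85 and 13.9 CPM on (log2 2.11 ± 0.41). The median of the list was -0.17, below 0, although these 4 rose. *Nat8l*, the enzyme that makes N-acetylaspartate, stood among the largest rises, at 33.9 and 9.07 CPM off and 314 and 140.2 CPM on (log2 3.62 ± 0.36, edgeR adjusted p 0.00348), as did *Tll1*, a BMP1-type metalloprotease (0.557 and 4.73 CPM off and 7.86 and 49.5 CPM on, log2 3.56 ± 0.29), and *Chst11*, a chondroitin sulfotransferase (2.66 and 9.61 CPM off and 43.9 and 66.8 CPM on, log2 3.31 ± 0.35).

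Epithelial junction genes moved both ways, with 2 of 30 called higher and 2 lower. *Cldn2*, a channel-forming claudin of leaky epithelia, fell from 147 and 338 CPM to 24.1 and 28.8 CPM (log2 -3.10 ± 0.36, edgeR adjusted p 0.00609), and *Crb3*, a polarity protein, from 2.49 and 1.44 CPM to 0.612 and 0.510 CPM. *Pkp1*, a desmosomal plakophilin, rose (25.4 and 31.3 CPM off and 84.0 and 69.2 CPM on, log2 1.45 ± 0.20). *Cldn4* had 2.96 and 0.199 CPM off and 46.2 and 3.26 CPM on and was called by edgeR (adjusted p 0.00328) but not by DESeq2 with the line (0.316). None of 10 keratins was called, including *Krt8* (1233 and 279.9 CPM off and 2410.1 and 242 CPM on) and *Krt18* (1439 and 729.6 CPM off and 2428 and 749 CPM on). *Rbm47*, an epithelial RNA-binding protein, and *Tspan8*, a tetraspanin of gastrointestinal epithelia, fell by log2 fold changes of -1.43 ± 0.12 and -2.98 ± 0.20.

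Gastric and stratified epithelial genes had no common direction. Of 15 mucin and gastric-type genes, *Ctse* (cathepsin E; 0.900 and 0.996 CPM off and 41.8 and 5.86 CPM on) and *Anxa10* (0.257 and 0.0996 CPM off and 3.73 and 0.255 CPM on) were called higher. In B87 *Anxa10* had 2 counts off and 5 on, near the floor, so its rise was chiefly in B73. By contrast, *Muc1* (28.2 and 8.22 CPM off and 8.01 and 1.07 CPM on, log2 -2.33 ± 0.37), *Vsig1* (9.08 and 7.37 CPM off and 2.81 and 0.765 CPM on) and *Muc13* were called lower. *Muc13*, a transmembrane mucin, had 5.91 and 1.39 CPM off and 0 and 1 counts on, at least 23.9-fold lower. Of 15 cornified envelope and S100 genes, *Lce1g* (0.900 and 0.797 CPM off and 21.4 and 9.48 CPM on) and *Sprr2h* (chiefly in B73) rose and *Sprr1a* fell. *Sprr1a*, a crosslinked precursor of the cornified envelope, had 57.9 and 65.4 CPM off and 9.19 and 12 CPM on (log2 -2.54 ± 0.12), and its edgeR adjusted p of 0.000779 was among the smallest of any gene. *Scel* (sciellin, of the same structure) fell by a log2 fold change of -1.87 ± 0.21.

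Among 14 clade B serpins, intracellular protease inhibitors, 2 rose and 1 fell. *Serpinb2* had 0.343 and 0.996 CPM off and 5.36 and 7.24 CPM on and *Serpinb5* (maspin) 0.171 and 0.349 CPM off and 6.58 and 2.70 CPM on, both called higher from low levels. *Serpinb9g* had 384 and 22.2 CPM off and 1.43 and 0.102 CPM on, with a deep fall in each line from very different starting levels (log2 -8.20 ± 0.33, edgeR adjusted p 0.000730). Of its 75-base stretches 44.9% are shared with other genes, which makes its assignment uncertain. *Mgat3*, which adds the bisecting branch to N-glycans, fell from 70.8 and 43.9 CPM to 5.21 and 5.35 CPM (log2 -3.40 ± 0.20, edgeR adjusted p 0.000902). *Cp* (ceruloplasmin, a copper-binding ferroxidase) had 13.5 and 34.0 CPM off and 0.663 and 2.75 CPM on and *Mpped2* 9.51 and 32.7 CPM off and 0.459 and 3.67 CPM on, and both were among the largest falls.

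Of 28 immediate early and feedback genes of ERK signaling, 4 were called higher and none lower, and 11 passed upward on adjusted p, with a median of 0.32. *Dusp5*, a nuclear ERK phosphatase, had 87.8 and 123 CPM off and 264 and 266 CPM on (log2 1.35 ± 0.16, edgeR adjusted p 0.00635) and *Ier3* 85.1 and 124 CPM off and 210.0 and 208 CPM on (log2 1.03 ± 0.13). The AP-1 subunits *Fosb* (8.83 and 5.03 CPM off and 15.7 and 16.2 CPM on) and *Fos* (0.600 and 1.25 CPM off and 4.03 and 2.50 CPM on) rose from low levels, and *Junb* (log2 0.63 ± 0.14) and *Dusp4* (0.70 ± 0.15) passed on adjusted p alone. *Vgll3*, a cofactor of TEAD factors, was the single called gene of 23 in the Hippo list (10.8 and 15.0 CPM off and 56.7 and 65.6 CPM on, log2 2.25 ± 0.18), and none of 17 KLF and RUNX factors nor of 14 pancreatic and foregut transcription factors was called.

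None of 54 G2/M genes was called, although all 54 had a negative change, 9 of them with an edgeR adjusted p under 0.05. The median of the list was -0.35, beside -0.01 over all tested genes and 0.07 for the same G2/M genes under SB505124. *Top2a* had 869 and 877 CPM off and 755 and 639 CPM on and *Mki67* 789.5 and 778 CPM off and 726 and 561 CPM on, with edgeR adjusted p-values of 0.172 and 0.265. None of 44 S-phase genes passed on adjusted p, although 39 had a negative change (median -0.15, beside -0.01 under SB505124). For both lists, the share of negative changes over all tested genes is not given here. Of 26 CDK inhibitors and G1 cyclin genes, 1 was called, *Mycl* (a MYC-family factor; 5.53 and 8.97 CPM off and 3.01 and 2.50 CPM on), lower. *Cdkn1a* (p21) had 252 and 293 CPM off and 385 and 387 CPM on and was not called (log2 0.49 ± 0.20, edgeR adjusted p 0.192). Of 23 BCL2-family and death receptor genes, *Bmf*, a pro-apoptotic BH3-only protein (7.20 and 6.53 CPM off and 0.868 and 1.43 CPM on, log2 -2.55 ± 0.50), and *Casp4*, a caspase that responds to intracellular bacterial lipopolysaccharide (10.7 and 11.7 CPM off and 0.766 and 1.63 CPM on, log2 -3.23 ± 0.42), fell. *Erbb3* was the single called gene of 15 EGF-family genes, lower (4.59 and 2.34 CPM off and 1.63 and 0.561 CPM on).

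Metabolic and detoxifying genes were mostly lower where they were called. Of 25 aldehyde dehydrogenase, cytochrome P450 and retinoid genes, 5 fell and 1 rose. *Aldh3a1* had 10.2 and 12.6 CPM off and 3.27 and 2.96 CPM on (log2 -1.87 ± 0.14, edgeR adjusted p 0.00140), *Aldh1a1* 69.5 and 50.0 CPM off and 30.9 and 23 CPM on (log2 -1.14 ± 0.09) and *Aldh3b1* 6.08 and 5.23 CPM off and 2.14 and 2.75 CPM on. *Aldh1a1* makes retinoic acid from retinal, and *Aldh1a3*, which has the same activity, was the gene that rose (6.30 and 3.74 CPM off and 22.3 and 16.3 CPM on, log2 1.95 ± 0.33). *Stra6*, a membrane receptor for retinol uptake (5.66 and 3.49 CPM off and 0.0510 and 0.204 CPM on, log2 -5.07 ± 0.54), and *Dhrs3*, a retinal reductase (9.0 and 2.34 CPM off and 0.561 and 0.714 CPM on), also fell. Of 35 NRF2 targets and glutathione enzymes, *Gsta4* was called lower (15.3 and 6.63 CPM off and 4.75 and 2.60 CPM on) and 4 others passed downward on adjusted p.

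Of 27 genes of cholesterol synthesis and uptake, 2 were called lower, and 9 had a negative change with an edgeR adjusted p under 0.05, with a median of -0.43. *Insig1*, a sterol-sensing regulator, had 207 and 131 CPM off and 96.9 and 53.4 CPM on (log2 -1.20 ± 0.13, edgeR adjusted p 0.00431). *Srebf2*, a transcription factor for sterol synthesis genes, had 329.8 and 234 CPM off and 312 and 203 CPM on and was not called (log2 -0.14 ± 0.08). Of 27 glycolysis and hypoxia genes, 8 passed upward on adjusted p with a median of 0.37, but only *Ndrg1*, a stress- and hypoxia-inducible gene, also exceeded 2-fold (59.0 and 71.7 CPM off and 167 and 167 CPM on, log2 1.36 ± 0.10). *Egln3*, a HIF prolyl hydroxylase and itself a HIF target, fell instead (14.1 and 28.1 CPM off and 6.28 and 11.5 CPM on, log2 -1.23 ± 0.15), and *Ldha* had 1398 and 1744 CPM off and 2006 and 2481 CPM on. *Stc2* was the single called member of 25 ATF4 targets, lower (5.18 and 6.38 CPM off and 1.99 and 2.14 CPM on). In the list of 21 membrane serine proteases and ion transport genes, *Wnk4* (7.16 and 5.53 CPM off and 1.99 and 1.43 CPM on, log2 -1.89 ± 0.21) and *Tmprss2* (5.18 and 1.54 CPM off and 2.50 and 0.765 CPM on) were called lower.

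A panel of SMAD4 targets that the study describes in metastases had 17 tested genes, of which 6 were called higher, among them *Itga5*, *Il11*, *Ccbe1* and *Wisp1*, and 1, *Bmf*, lower. Over all 43 lists, 940 genes were tested, of which 63 (6.70%) were called higher and 50 (5.32%) lower. Outside every list lay 125 of the higher and 208 of the lower genes. Since the lists were chosen with earlier results known, these shares describe the lists only.

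The called genes mostly had the same direction in the 2 lines but not always the same size. With the line in the model, a call itself favors genes that agree between the lines. The same sign among called genes is therefore partly built in and is no separate support. Of the 446 called genes, 11 had at most 3 counts in both TGFβ1 libraries of 1 line and are results of the other line, and the remaining 435 had the same sign in B73 and B87 without exception. Over 2-fold in each line were 151 of the higher and 205 of the lower genes. For these counts by line, no share over all tested genes is given here, so they describe the called genes only. The correlation of the log2 changes of B73 and B87 was 0.92 across the called genes and 0.60 across all tested genes, given as a description, since genes are not independent replicates and called genes were chosen for agreement between the lines. Higher genes rose further in B73 in 143 of 188 cases (median log2 change 1.78 against 1.48), whereas lower genes fell further in B73 in 125 of 258 (-1.70 against -1.77).

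A term for the difference of the Smad4 effect between lines, averaged over both treatments, called 56 genes (0.392% of those tested). The count rose to 125 without the B73 Smad4-on TGFβ1 library, 156 without the B87 Smad4-off and 124 without the B87 Smad4-on library of that treatment. Of the 446 genes, 9 had an adjusted p under 0.05 for it in edgeR. *Has2* rose much more in B73 than in B87 under TGFβ1 (log2 changes 4.8 and 1.85; difference of B87 minus B73 over treatments -3.03 ± 0.26, edgeR adjusted p 0.0176), although under SB505124 it was below 1 CPM in every library. *Mylk* fell further in B73 (-4.50 and -2.71; difference 1.73 ± 0.20, edgeR adjusted p 0.0329), as did *Dhrs3* (-3.79 and -1.59). *Angptl4* (-3.64 and -5.08), *Cldn2* (-2.60 and -3.55), *Frmd4b* (-1.24 and -2.40) and *Vsig1* (-1.66 and -3.12) fell further in B87. *Jag1* (2.16 and 1.31) rose further in B73.

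**Figure D4:**
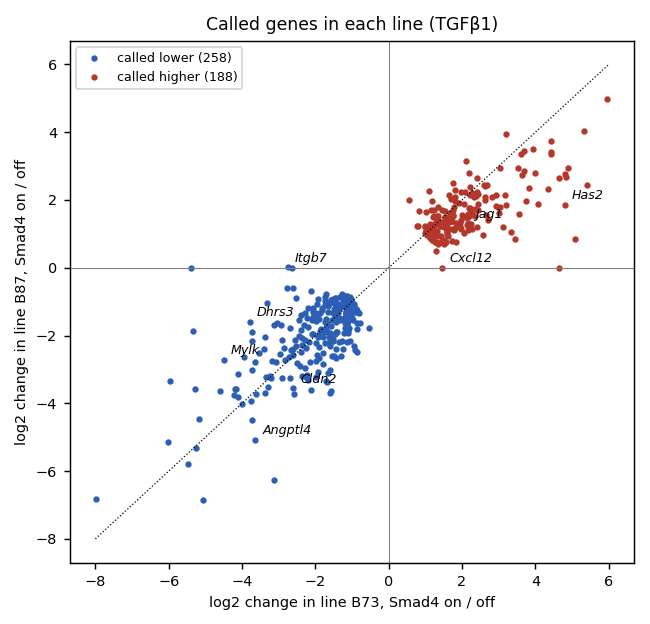
Log2 change (Smad4 on over off under TGFβ1) in B73 (x axis) and B87 (y axis) for the 446 called genes, red for the 188 higher and blue for the 258 lower; the dotted line marks equal change. Points lie in the same quadrant along the diagonal, except for genes with almost no counts in B87, such as *Itgb7*, and genes whose size differs by line, such as *Has2* and *Mylk*, lie away from it.

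Whether the Smad4 effect depended on TGFβ signaling was tested against the same comparison under SB505124, which uses the other 4 libraries. Genes called under TGFβ1 were chosen for a large effect there, so a smaller effect under SB505124 is not by itself a result. For these genes, the median log2 fold change under SB505124 was 0.82 over the 188 higher and -0.70 over the 258 lower genes. Of them, 36 and 49 were also called in the same direction. The share of all tested genes called under SB505124 is not given here, so these counts describe the called genes only. The difference of the effects was called for 27 genes (0.189% of those tested), which include 6 of the higher and 14 of the lower genes. *Itga5* had 42.6 and 43.7 CPM off and 45.7 and 68.6 CPM on under SB505124 (log2 0.38), and its effect was larger under TGFβ1 by 1.54 ± 0.18 (edgeR adjusted p 0.0461). *Vegfa* had 69.4 and 65.8 CPM off and 62.4 and 57.9 CPM on under SB505124, so that its levels barely differed between states there (difference of effects 1.38 ± 0.13, edgeR adjusted p 0.0206). *Fermt2* (1.01 ± 0.11), *Ndrg1* (1.13 ± 0.14), *Nabp1*, which encodes a single-stranded DNA-binding protein (1.5 ± 0.16), and the V-ATPase subunit gene *Atp6v1g1* (1.26 ± 0.11) completed the higher genes. Of the stretches of *Atp6v1g1*, 12.5% are shared with another gene.

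Among the lower genes, *Il33* had 50.5 and 26.3 CPM off and 59.1 and 34.1 CPM on under SB505124 against 12.6 and 7.57 CPM off and 1.68 and 1.07 CPM on under TGFβ1, so that the Smad4-on cells under TGFβ1 stood apart as the lowest (difference -3.17 ± 0.19, edgeR adjusted p 0.00529). *Mgat3* (-3.02 ± 0.26), *Tspan8* (-2.43 ± 0.26), *Plat* (-1.98 ± 0.17), *Wnk4* (-2.09 ± 0.25), *Scel* (-2.20 ± 0.26), *Rbm47* (-1.45 ± 0.16), *Aldh1a1* (-1.13 ± 0.12) and *Myl12b* (-1.06 ± 0.13) likewise had little change under SB505124 and a fall under TGFβ1. *Sprr1a* fell under both, but further under TGFβ1 (-1.27 ± 0.16). In *Gsta4* and *Aldh3a1* the direction turned. *Gsta4*, a glutathione transferase for lipid peroxidation products, had 235 and 102 CPM off and 594 and 229 CPM on under SB505124 (log2 1.25), and *Aldh3a1* had 149 and 172 CPM off and 250.3 and 319 CPM on (log2 0.82), against falls of both under TGFβ1 (differences -2.80 ± 0.17 and -2.69 ± 0.17, with an edgeR adjusted p of 0.00529 for either).

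*Adgrg1*, an adhesion receptor coupled to G proteins, was the 1 gene of these 20 with a deeper fall under the inhibitor. It had 283 and 249 CPM off and 29.3 and 22.9 CPM on under SB505124 (log2 -3.36) and 526 and 479 CPM off and 232 and 141 CPM on under TGFβ1 (-1.47 ± 0.15), with a difference of 1.90 ± 0.21 (edgeR adjusted p 0.0380). *Ddc* differed too, but in B73 alone, since it had at most 2 counts in each B87 library. *Ctgf*, a SMAD and YAP target that was not called under TGFβ1 because it stayed below 2-fold (940.2 and 1377 CPM off and 1511 and 2501 CPM on), went the other way under SB505124 (207 and 273 CPM off and 85.5 and 168 CPM on; difference 1.75 ± 0.20, edgeR adjusted p 0.0387). By contrast, *Serpinb9g* (log2 -8.70), *Col4a3* (-4.17), *Col4a4* (-3.68), *Stra6* (-4.51), *Plxna4* (5.12) and *Acta2* (2.62) also changed strongly under SB505124, and their differences of effects did not pass (edgeR adjusted p from 0.790 to 0.967). For *Il11* and *Col5a3*, which were below 1 CPM in every SB505124 library, the difference did not pass either (2.45 ± 1.08 and 3.42 ± 0.96, edgeR adjusted p 0.497 and 0.278). Without the line in the model none of these differences was called by edgeR, with 640 genes at an unadjusted p under 0.05. Leaving out any 1 of the 8 libraries also lowered the 27 calls, to between 0 (without the B73 Smad4-off TGFβ1 library) and 14 (without the B87 Smad4-on TGFβ1 library).

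**Figure D5:**
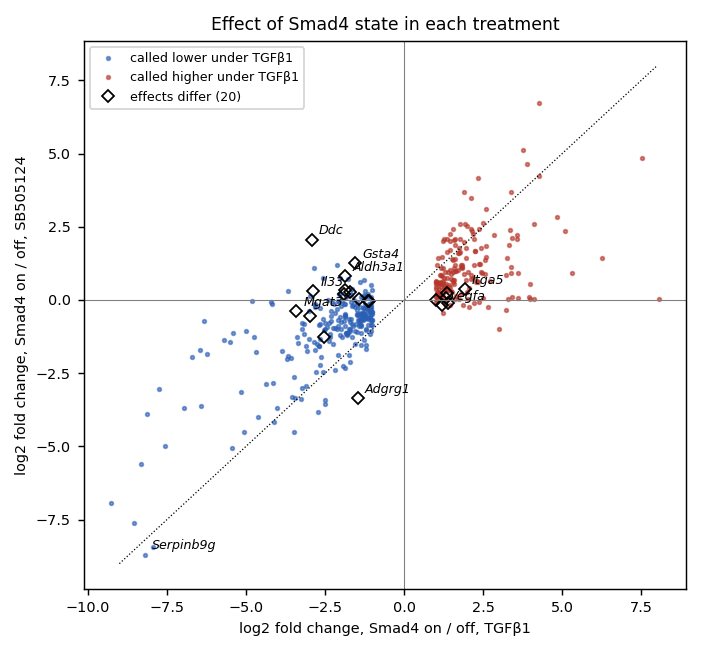
Log2 fold change of Smad4 on over off under TGFβ1 (x axis) and under SB505124 (y axis) for the 446 genes called under TGFβ1, red for higher and blue for lower; open diamonds mark the 20 genes whose effects differ between the treatments and the dotted line equal effects. *Vegfa* and *Itga5* lie near 0 on the y axis, *Gsta4* and *Aldh3a1* lie on opposite sides of 0, and *Adgrg1* lies below the diagonal; fitted folds of genes near 0 counts depend on the fitting.

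The start regions of 3 further genes are shown, each with a Smad4 effect that depended on the treatment. They do not stand for all such genes. *Itga5* and *Vegfa* rose more under TGFβ1 than under SB505124, and *Sprr1a* had one of the smallest p-values among the falls. Sequences run 250 bases before to 50 after the start on the minus strand (GRCm38.p6, RefSeq), at chr15:103366742-103367041, chr17:46032328-46032627 and chr3:92485832-92486131. Capitals mark CAGAC on either strand (GTCTG on the other), the core word of SMAD binding, in the first and second, and TGANTCA, the AP-1 word, in the third.
*Itga5*: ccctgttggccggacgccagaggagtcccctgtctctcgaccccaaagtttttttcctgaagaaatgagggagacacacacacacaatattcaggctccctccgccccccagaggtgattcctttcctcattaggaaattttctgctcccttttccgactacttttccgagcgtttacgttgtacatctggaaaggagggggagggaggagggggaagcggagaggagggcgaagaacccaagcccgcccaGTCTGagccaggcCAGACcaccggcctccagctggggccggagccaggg
*Vegfa*: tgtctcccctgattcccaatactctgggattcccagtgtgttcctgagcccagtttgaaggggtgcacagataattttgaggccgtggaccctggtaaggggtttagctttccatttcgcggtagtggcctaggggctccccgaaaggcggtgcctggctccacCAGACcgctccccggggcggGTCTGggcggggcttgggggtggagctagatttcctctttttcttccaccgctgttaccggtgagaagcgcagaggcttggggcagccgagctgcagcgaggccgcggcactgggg
*Sprr1a*: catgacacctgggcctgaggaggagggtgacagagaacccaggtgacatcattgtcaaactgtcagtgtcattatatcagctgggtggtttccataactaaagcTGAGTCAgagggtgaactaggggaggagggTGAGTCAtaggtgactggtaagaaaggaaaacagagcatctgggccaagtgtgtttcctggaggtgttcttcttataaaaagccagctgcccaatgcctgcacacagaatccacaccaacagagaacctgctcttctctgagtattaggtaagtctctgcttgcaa

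The *Itga5* and *Vegfa* windows each hold 2 CAGAC words and the *Sprr1a* window 2 TGANTCA words and no CAGAC. The window of *Il33*, whose Smad4 effect also differed between the treatments, is not printed and holds neither word. Such short words are common, since CAGAC occurs in 49.6% and TGANTCA in 7.81% of the 32851 promoter windows in the RefSeq table, counted on both strands. A match is a description of the letters and not a bound site. A comparison of motif shares between called and other genes was void, because only 69.1% of the higher, 74.8% of the lower and 73.1% of all tested genes had a window in the table.

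Called genes were sometimes neighbors. Among tested genes in chromosome order, 41 runs of at least 2 called genes occurred, of which 39 had a single direction and 2 held 3 genes. In the first, *Ly6e* (474 and 215 CPM off and 209 and 86.6 CPM on), *Ly6a* (183 and 13.6 CPM off and 34.5 and 5.15 CPM on) and *Ly6c1* (28.6 and 1.05 CPM off and 1.48 and 0 CPM on), members of a family of small surface proteins on chromosome 15, all fell (log2 -1.25 ± 0.10, -2.03 ± 0.32 and -4.19 ± 0.66). They span 93.8 kb, and 19.0% of the stretches of *Ly6c1* are shared with other genes. In the second, on chromosome 5, *Zfp518b*, the predicted gene *Gm42528* and the heparan sulfotransferase gene *Hs3st1* (7.20 and 5.53 CPM off and 1.02 and 0.816 CPM on, log2 -2.80 ± 0.35) fell across 1087 kb. With untested genes counted as interruptions, 15 runs remained and none held 3 genes.

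Pairs on opposite strands with 5′ ends within 1000 bases, a rule chosen after these values were seen, numbered 1309 among tested genes. In 17 pairs at least 1 gene was called, and in 5 both were, always in the same direction. Besides *Col4a4* and *Col4a3* these were *Smad7* with *Gm20544*, *Slc25a23* with *Crb3*, *Tmem176b* with *Tmem176a* and *4933431E20Rik* with *Gstm5*. *Tmem176a* (57.5 and 63.9 CPM off and 13.6 and 16.5 CPM on, log2 -2.02 ± 0.11) and *Tmem176b* (130.2 and 179 CPM off and 34.5 and 44.9 CPM on, log2 -1.96 ± 0.12) encode related membrane proteins. In the last 3 pairs the genes overlap at their 5′ ends, and reads of the genes can be told apart only if strand was used in counting, which the sources used here do not state.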

How the data were processed

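RNA was measured in 8 libraries of KC-shSmad4 PDAC lines KCS-B73 and KCS-B87, grouped by the line, Dox state and treatment in the sample titles. The authors made stranded poly(A) libraries (75-base single-end reads), trimmed them with Trimmomatic 0.36, aligned them to GRCm38 with STAR 2.5.3a and deposited raw gene counts from featureCounts 1.6.3. Strand and multi-mapping settings were not given in the sources used here.

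The counts were tested in R 4.3.3 with edgeR 4.0.16 (TMM, filterByExpr, quasi-likelihood F-test) in 1 model of all 8 libraries with 4 groups and the line, which left 3 residual degrees of freedom. The study's methods name DESeq2 without a covariate, with the same thresholds. For these culture libraries, the study also removed genes upregulated under both treatments to define SMAD4-dependent genes. That step was not taken here. Libraries are paired because the same line went through all groups (correlation of line deviations between groups 0.642 to 0.774). Standard errors are the log2 fold change over the square root of F, changes per line are differences of log2 CPM with a prior count of 2, and bounds use a floor of 3 counts per library. Levels per kilobase use the transcript length in the deposited table. Shares of common 75-base stretches were computed from GENCODE M21 transcripts. Scripts were tested on simulated counts.

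Members and lists were chosen with earlier results of these data known. The text names *Smad4*, the called genes with the largest changes and smallest p, up to 5 called and 2 abundant uncalled members of each list, genes whose effect differed between treatments and runs of 3 neighbors. Other named genes were chosen after their values were seen. Some counted genes and an allele are not reported by name here. Alternatives were DESeq2 1.42.0 and its size factors, other count filters, no fold rule, a test against 2-fold (glmTreat from edgeR), a line-by-treatment term, models with no replicate block, the 4 libraries alone, and leaving out each library.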

Additional observations from a re-analysis of the deposited data

Results flagged for a closer look

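For 21 of the named genes the effect of *Smad4* state differed between TGFβ1 and SB505124 by the interaction term of the edgeR model (adjusted p under 0.05). Each value is the log2 fold change under TGFβ1 minus that under SB505124. Among genes called higher under TGFβ1 it was 1.54 for *Itga5*, 1.38 for *Vegfa*, 1.13 for *Ndrg1*, 1.5 for *Nabp1*, 1.01 for *Fermt2* and 1.26 for *Atp6v1g1*, and it was 1.75 for *Ctgf*, which was not called there. Among genes called lower it was -2.69 for *Aldh3a1*, -2.80 for *Gsta4*, -3.17 for *Il33*, -3.02 for *Mgat3*, -2.43 for *Tspan8*, -2.20 for *Scel*, -2.09 for *Wnk4*, -1.98 for *Plat*, -1.45 for *Rbm47*, -1.27 for *Sprr1a*, -1.13 for *Aldh1a1* and -1.06 for *Myl12b*. *Adgrg1* had the opposite sign among the lower genes, 1.90, and *Ddc* (-4.97) was a result of B73 alone.

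For 8 of the named called genes the effect of *Smad4* state, averaged over both treatments, differed between the lines by the corresponding edgeR term (adjusted p under 0.05). The value is the log2 effect in B87 minus that in B73. It was -3.03 for *Has2*, -1.71 for *Angptl4*, -1.43 for *Vsig1*, -1.21 for *Frmd4b*, -1.19 for *Cldn2* and -0.84 for *Jag1*, and it was positive for *Dhrs3* (1.80) and *Mylk* (1.73), which fell further in B73. Groups had 2 libraries each, so single libraries were not examined for standing apart.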

How the results depend on the processing

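Under TGFβ1, where 188 genes were called higher and 258 lower, there were 293 and 490 with no filter on low counts, 504 and 469 with no fold-change rule, and 36 and 43 when tested against 2-fold (glmTreat). With no replicate block edgeR called 16 and 20 and DESeq2 106 and 162, although the lines pair the libraries. Leaving out each library in turn gave 57 to 196 higher and 99 to 258 lower genes. The difference between treatments (27 genes) was called for 135 genes by DESeq2 with the line, 284 with no filter, 3 by glmTreat, 14 with a line-by-treatment term, 0 with no replicate block in edgeR (640 genes at an unadjusted p under 0.05) and 0 to 14 with a library left out, the 0 being without the B73 Smad4-off TGFβ1 library (1035 at an unadjusted p under 0.05). The difference between lines (56 genes) was called for 103 genes by DESeq2, 399 with no filter, 0 by glmTreat (261 at an unadjusted p under 0.05), 370 with a line-by-treatment term and 56 to 156 with a library left out. The cause of these changes was not tested.

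Of the 135 called genes in the text, 127 kept their call in DESeq2 with the line and 7 lost it, namely *Col5a2*, *Vegfd*, *Ccl2*, *Ccl5*, *Cldn4*, *Cxcl12* and *Sprr2h*, while *Actg2* received no adjusted p there. With no replicate block 17 kept it in edgeR, and 75 kept it without the B73 Smad4-off TGFβ1 library. *Cxcl12* turned to -0.18 without the B73 Smad4-on library, where only B87, which has no counts for it, is left (1.45 without the B87 on library). The log2 change of *Smad4* passed in every fit. At these depths genes with a few counts per library can be shown to differ only by large folds. The planned comparison of promoter motifs between called and all genes was not run, for lack of promoter windows.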
